A study of Mus musculus with 7 samples.

Results

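The genes described here are 10 immediate early genes outside the AP-1 family: Egr1, Egr3, Klf4, Nr4a1, Myc, Dusp1, Zfp36, Btg2, Ier2 and Ier3. They came as a list of gene symbols that uses no measured value, and make up 10 of the 32285 genes counted. All 10 passed the filter on low counts, which left 17155 genes to test. Bulk RNA sequencing was done on utricles, a vestibular sensory organ of the inner ear, taken from wild-type C57BL/6J mice at postnatal day 2 and grown as explants, with 12 utricles pooled in each library. The explants of both groups were injured with 2 mM gentamicin, an antibiotic toxic to hair cells, for 24 h and were collected at day 5 post-injury. The Gent+Fos OE group (4 libraries) also received an AAV-PHP.eB virus carrying Fos under the CMV promoter for 48 h, and the Gent group (3 libraries) is labelled with gentamicin only. Whether the Gent explants received a virus was not settled by the sources: the labels name none, the study describes a control virus group for this comparison, and the names given to the Gent counts hold the letters sh, which can stand for a Fos shRNA experiment. Every fold change of Gent+Fos OE over Gent, that of Fos included, therefore rests on the labels, and no uninjured group is compared here.

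Immediate early genes are transcribed within minutes of a stimulus, without the need for new protein, because the factors that switch them on (SRF with its partners, CREB) already sit in the cell. Fos is one of them. Some encode transcription factors (Egr1, Egr3, Klf4, Nr4a1, Myc) and others encode proteins that end the response (Dusp1, a phosphatase of MAP kinases, and Zfp36, which speeds the decay of AU-rich mRNAs). In the inner ear as elsewhere they are known as short-lived markers of injury and of handling of the tissue.

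None of the 10 genes was called changed beside the rise of Fos. Fos mRNA was 4.04-fold higher in Gent+Fos OE than in Gent, and 0 of the 10 genes passed the limits, at an adjusted p under 0.01 with a log2 fold change over 0.25 in either direction. Of all genes tested, 0.134% were called higher and 0.28% lower by this rule. The fold changes of the 10 genes ran from 0.80-fold (Ier3) to 1.5-fold (Klf4), with 4 above and 6 below 1 and a median log2 fold change of -0.03, beside -0.00 over all genes tested. Klf4 was higher and Zfp36 was lower in every Gent+Fos OE library than in any Gent library, but both missed the limit on the adjusted p. Among all genes tested, 11.3% were higher and 12.2% lower without overlap between the groups.

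Promoter sequences are shown for the genes whose windows hold sites for the factors that drive immediate early transcription, and for Klf4 and Zfp36, the pair without overlap between the groups. The RefSeq promoter table (GRCm38.p6, the assembly called mm10) has windows, from 250 bases before to 50 bases after the transcription start, for 6 of the 10 genes: Btg2, Klf4, Zfp36, Nr4a1, Dusp1 and Ier3. Egr1, Egr3, Ier2 and Myc had no window in it. The first 3 lines give the 250 bases before the start of Klf4 (chr4:55532476-55532725, minus strand), Nr4a1 (chr15:101266596-101266845, plus strand) and Btg2 (chr1:134079156-134079405, minus strand), none of which is annotated as exon of the gene. The last 2 lines give 30 bases around single sites of Zfp36 (chr7:28379267-28379296, minus strand) and Dusp1 (chr17:26508597-26508626, minus strand). The Zfp36 window, its CArG box included, lies within annotated exon of that gene in the count files, whose Zfp36 reaches further upstream than the RefSeq start, whereas the 30 bases of Dusp1 are not annotated as exon of Dusp1. All run 5′ to 3′ on the gene's strand, and capitals mark matches to the CArG box, CRE, CRE core or EGR site.
Klf4: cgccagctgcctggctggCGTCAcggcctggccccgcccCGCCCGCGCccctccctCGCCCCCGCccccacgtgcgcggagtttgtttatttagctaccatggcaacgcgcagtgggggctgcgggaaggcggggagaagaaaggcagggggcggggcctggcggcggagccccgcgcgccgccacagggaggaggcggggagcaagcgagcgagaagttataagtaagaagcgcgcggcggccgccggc
Nr4a1: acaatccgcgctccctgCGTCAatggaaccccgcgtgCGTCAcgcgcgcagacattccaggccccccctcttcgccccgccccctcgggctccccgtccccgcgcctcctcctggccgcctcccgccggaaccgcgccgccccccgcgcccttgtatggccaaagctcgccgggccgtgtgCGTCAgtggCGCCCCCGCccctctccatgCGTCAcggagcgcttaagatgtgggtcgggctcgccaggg
Btg2: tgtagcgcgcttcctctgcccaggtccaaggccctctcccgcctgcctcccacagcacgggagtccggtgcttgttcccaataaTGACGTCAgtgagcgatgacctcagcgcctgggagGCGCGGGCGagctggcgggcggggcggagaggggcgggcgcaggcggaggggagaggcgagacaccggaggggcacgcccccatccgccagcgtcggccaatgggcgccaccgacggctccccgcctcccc
Zfp36: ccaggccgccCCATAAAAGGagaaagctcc
Dusp1: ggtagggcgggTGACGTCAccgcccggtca

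The motifs were searched on both strands as strings of letters. The CArG box, bound by SRF, is CC, then 6 bases that are A or T, then GG, and it was found in Zfp36 alone of the 6 genes, starting 58 bases before the start, beside 1.63% of all 32851 windows. The full CRE, TGACGTCA, was in Btg2 (starting at -166) and Dusp1 (starting at -143), beside 1.79% of windows. Its core TGACG, which also lies within each full CRE, was in 4 of the 6 (Btg2, Klf4, Nr4a1 and Dusp1), beside 20.8%, and Nr4a1 held 4 copies. The EGR site GCGNGGGCG was in Btg2, Klf4, Zfp36 and Nr4a1, beside 5.55% of windows, with 2 copies in Klf4. The AP-1 site TGANTCA, the sequence bound by Fos with Jun proteins, was in 0 of the 6 windows and in 7.81% of all windows, and TATAAA was in 0 of the 6 and 13.6% of all. A match of letters is not a measured binding site, and a window without one says nothing on sites elsewhere.

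Library totals ran from 27879889 to 34335214 counts (median 31313523). Gent replicate 2 stood apart from the rest, with 2.86% of counts on mitochondrial genes (1.74% to 1.99% in the others) and a rank correlation across genes of -0.50 between gene length and its deviation from the mean of all libraries (-0.22 to 0.33 in the others). Of the 10 genes 8 are shorter than the median gene tested (all but Egr1 and Egr3), with a median exon length of 3180 bp beside 4084 bp, so values without this library or with the length trend removed are given beside the main ones where they moved most. Values below are CPM, counts scaled by library size, after TMM normalization, which sets library scales so that most genes do not differ, and errors are SDs over libraries.

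Fos itself, the check of the overexpression, had 151, 151, 167 and 149 CPM in Gent+Fos OE replicates 1 to 4 and 39.5, 40.6 and 34.6 CPM in Gent replicates 1 to 3. The groups stood far apart, and the log2 fold change was 2.01 ± 0.13 (SE, 95% CI 1.74 to 2.29, edgeR adjusted p = 0.000142). Reads from the native gene and from the vector cannot be told apart in these counts.

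Klf4, a zinc finger transcription factor of epithelial barriers and one of the reprogramming factors, lies at chr4:55527143-55532466 (minus strand, mm10, ENSMUSG00000003032). It had 18.4, 20.7, 16.9 and 14.4 CPM in Gent+Fos OE and 10.1, 13.7 and 11.5 CPM in Gent. The lowest Gent+Fos OE library lay just above the highest Gent library, and the group means were 17.6 ± 2.62 (n = 4) and 11.7 ± 1.79 (n = 3). The log2 fold change was 0.58 ± 0.17 (SE, 95% CI 0.21 to 0.96), or 1.5-fold with an interval of 1.15 to 1.95. With an edgeR p of 0.00606 before and 0.104 after adjustment over all genes, Klf4 was not called, and by DESeq2 the adjusted p was 0.0312. In the exact permutation test of the 7 libraries (two-sided, 35 arrangements, smallest possible p 0.0286), p was 0.0571. Without Gent replicate 2 the log2 fold change of Klf4 was 0.70 (edgeR adjusted p = 0.048), and with the length trend removed it was 0.71 (0.036). Of all genes tested, 11.3% were higher without overlap between the groups and 11.1% were higher at an unadjusted p under 0.05, and Klf4 was the 1 member to reach either.

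Egr1 and Egr3, zinc finger factors that bind the EGR site, did not separate the groups. Egr1 (chr18:34859823-34864984, plus strand, ENSMUSG00000038418) had 59.1, 67.9, 55.7 and 59.1 CPM in Gent+Fos OE and 67.2, 45.1 and 51.2 CPM in Gent. Gent replicate 1 came just under the highest Gent+Fos OE library, and the log2 fold change was 0.15 ± 0.15 (SE, 95% CI -0.19 to 0.49, edgeR adjusted p = 0.559). For Egr1 it was 0.025 without Gent replicate 2 and 0.33 without Gent replicate 1 (edgeR adjusted p = 0.936 and 0.139). Egr3 (chr14:70077203-70082614, plus strand, ENSMUSG00000033730) was the least abundant member, with 64 to 194 counts a library. It had 4.85, 5.94, 4.5 and 5.03 CPM in Gent+Fos OE and 5.48, 2.05 and 3.35 CPM in Gent. Its log2 fold change of 0.49 ± 0.30 (SE, 95% CI -0.18 to 1.15, edgeR adjusted p = 0.328) rested on single Gent libraries, being 0.20 without Gent replicate 2 and 0.91 without Gent replicate 1. An Egr3 difference of more than 2-fold thus lies within the interval and was not resolved at this spread.

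Nr4a1, an orphan nuclear receptor that acts without a known ligand, lies at chr15:101254269-101274795 (plus strand, ENSMUSG00000023034). It had 17.9, 23.0, 20.7 and 15.4 CPM in Gent+Fos OE, a range that enclosed the 18.0, 20.4 and 20.6 CPM in Gent. Its log2 fold change was -0.03 ± 0.16 (SE, 95% CI -0.38 to 0.32, edgeR adjusted p = 0.92).

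Myc, the growth and cell cycle factor, lies at chr15:61985391-61990374 (plus strand, ENSMUSG00000022346). It had 17.2, 22.5, 18.6 and 20.3 CPM in Gent+Fos OE and 22.6, 21.4 and 19.8 CPM in Gent. The groups overlapped, and the log2 fold change was -0.11 ± 0.14 (SE, 95% CI -0.42 to 0.20, edgeR adjusted p = 0.631).

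Zfp36, the tristetraprolin gene, lies at chr7:28376784-28380253 (minus strand, ENSMUSG00000044786), and 3.6% of its exonic bases are shared with another gene. It had 33.8, 30.6, 28.5 and 32.5 CPM in Gent+Fos OE and 37.6, 37.5 and 37.8 CPM in Gent. All 4 Gent+Fos OE libraries lay below all 3 Gent libraries, with means of 31.4 ± 2.32 (n = 4) and 37.6 ± 0.131 (n = 3). The exact permutation test gave p = 0.0286, the smallest it can give. The log2 fold change was -0.26 ± 0.12 (SE, 95% CI -0.52 to -0.00), with an edgeR p of 0.0489 before and 0.203 after adjustment, so Zfp36 was not called. With the length trend removed the log2 fold change was -0.19. Of all genes tested, 12.2% were lower without overlap between the groups and 13.4% were lower at an unadjusted p under 0.05, and Zfp36 was the 1 member to reach either.

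Dusp1, the MAP kinase phosphatase, is annotated at chr17:26505590-26562128 (minus strand, ENSMUSG00000024190). It had 38.8, 28.3, 29.4 and 24.7 CPM in Gent+Fos OE and 21.4, 32.1 and 27.0 CPM in Gent. Gent+Fos OE replicate 1 was the highest and the groups overlapped, and the log2 fold change was 0.18 ± 0.19 (SE, 95% CI -0.24 to 0.59, edgeR adjusted p = 0.573). It was 0.029 without Gent+Fos OE replicate 1, 0.036 without Gent replicate 1, 0.32 without Gent replicate 2 and 0.28 with the length trend removed, so the size of the Dusp1 difference rested on single libraries.

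Btg2, an antiproliferative gene that is also a p53 target, lies at chr1:134075170-134079120 (minus strand, ENSMUSG00000020423). It had 70.4, 84.8, 79.3 and 77.4 CPM in Gent+Fos OE and 78.8, 78.7 and 80.6 CPM in Gent. Its log2 fold change was -0.02 ± 0.12 (SE, 95% CI -0.28 to 0.23, edgeR adjusted p = 0.911). In this fit the interval for Btg2 runs from 0.82-fold to 1.17-fold, and it does not include shifts from processing. The log2 fold change of Btg2 was 0.12 with the length trend removed and 0.13 with length and GC trends removed.

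Ier2 (chr8:84661331-84662854, minus strand, ENSMUSG00000053560) and Ier3 (chr17:35821684-35822923, plus strand, ENSMUSG00000003541) are short genes, Ier3 encoding a regulator of cell survival. Ier2 had 23.9, 28.5, 25.3 and 23.2 CPM in Gent+Fos OE and 26.7, 34.4 and 24.6 CPM in Gent. Ier3 had 113, 141, 128 and 110.0 CPM in Gent+Fos OE and 136, 192 and 133 CPM in Gent. Both were highest in Gent replicate 2, and the groups overlapped for both. The log2 fold change was -0.18 ± 0.15 (SE, 95% CI -0.51 to 0.16, edgeR adjusted p = 0.478) for Ier2 and -0.32 ± 0.16 (SE, 95% CI -0.68 to 0.03, edgeR adjusted p = 0.24) for Ier3. For Ier3 it was -0.13 without Gent replicate 2 and -0.04 with the length trend removed, and for Ier2 -0.03 and 0.09. For Myc, Nr4a1 and Btg2, removing the length trend likewise turned the small negative values to 0.03, 0.04 and 0.12. Ier3 too turned to 0.0043 with length and GC trends removed, so the direction of these 5 genes (Ier2, Ier3, Myc, Nr4a1 and Btg2) was not settled.

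**Figure D1:**
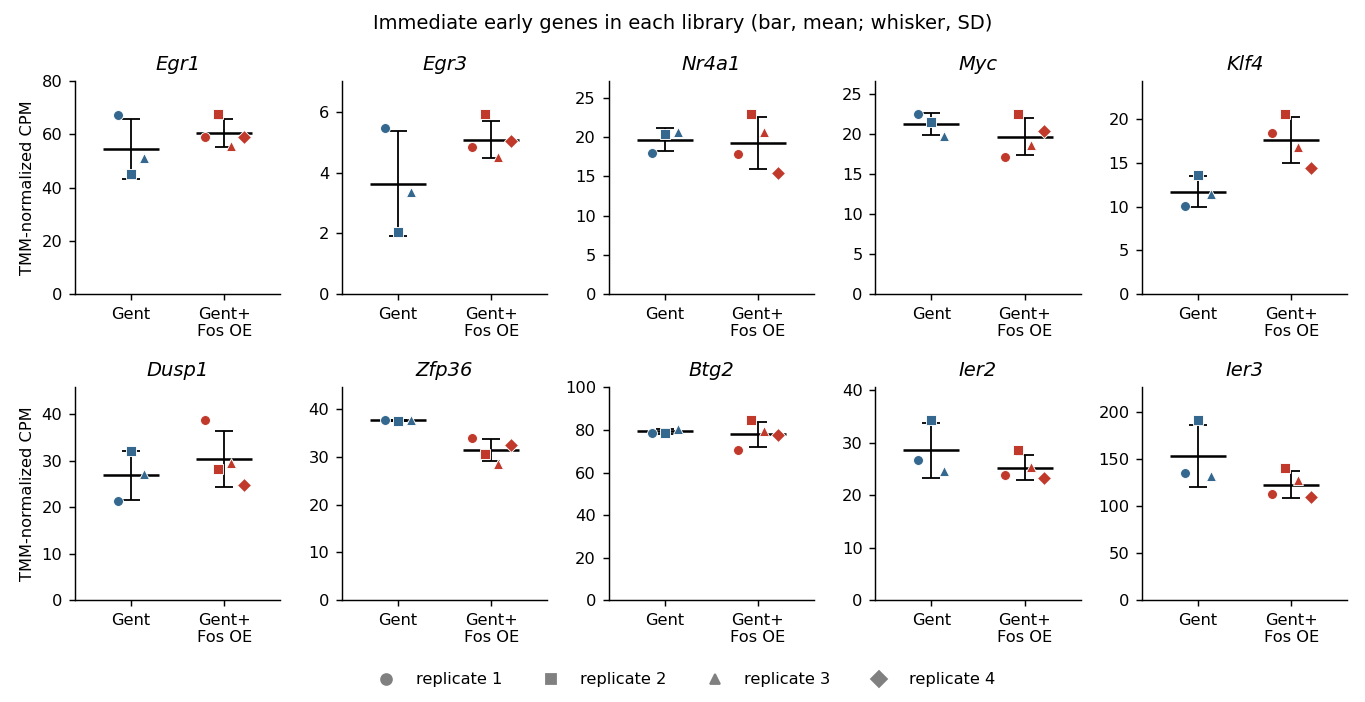
TMM-normalized CPM (y axes, from 0) of the 10 immediate early genes in the 3 Gent (blue) and 4 Gent+Fos OE (red) libraries, with symbols for the replicate numbers, bars for group means and whiskers for SDs. Klf4 and Zfp36 are the 2 genes whose groups do not overlap, with Klf4 at 17.6 against 11.7 CPM and Zfp36 at 31.4 against 37.6 CPM. Of all genes tested, 11.3% were higher and 12.2% lower without overlap.

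**Figure D2:**
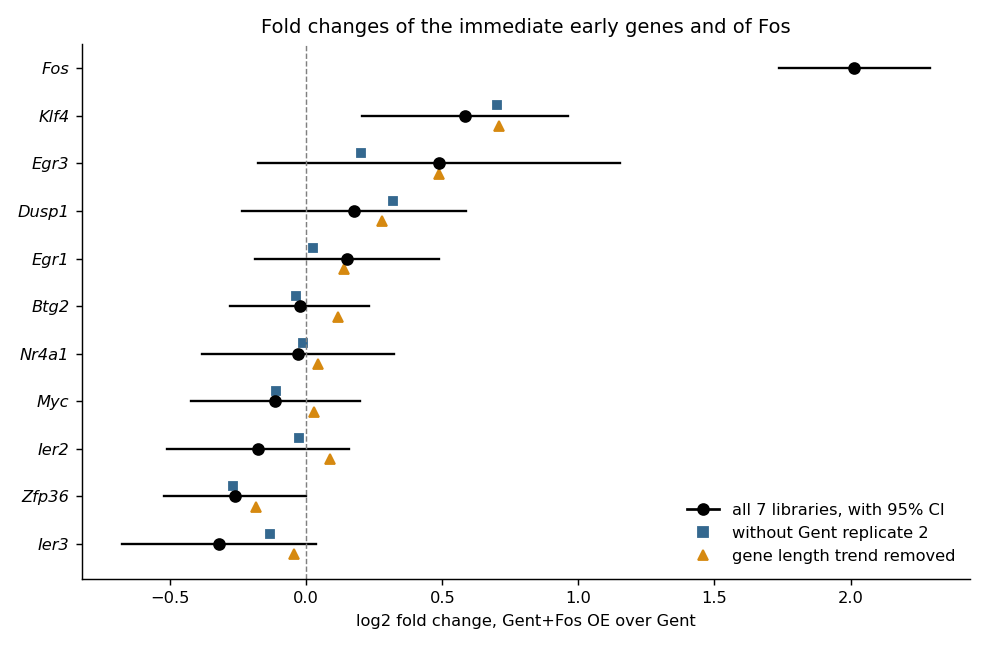
Log2 fold changes of Gent+Fos OE over Gent (x axis) for Fos and the 10 genes, with 95% confidence intervals over all 7 libraries (black), without Gent replicate 2 (squares) and with the gene length trend removed (triangles). Fos lies at 2.01, Klf4 at 0.58 and the remaining genes between -0.32 (Ier3) and 0.49 (Egr3), and the triangles of Ier2, Myc, Nr4a1 and Btg2 fall on the other side of 0.

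Levels between genes were compared per kilobase of exon. In Gent, Ier3 was by far the most abundant, at 136 ± 29.6 CPM per kilobase, followed by Btg2 (28.9 ± 0.392), Ier2 (18.7 ± 3.39), Egr1 (12.2 ± 2.54), Zfp36 (10.8 ± 0.0378), Dusp1 (8.11 ± 1.61), Myc (7.83 ± 0.512), Nr4a1 (5.60 ± 0.411), Klf4 (3.85 ± 0.588) and Egr3 (0.82 ± 0.392), with n = 3 for each. Egr1 and Zfp36 overlapped in their ranges, as did Dusp1 and Myc, and the other neighbours in this order were apart in every Gent library. In Gent+Fos OE the mean of Klf4, 5.77 ± 0.86 (n = 4), lay above that of Nr4a1, 5.48 ± 0.935, and that of Dusp1, 9.16 ± 1.81, above that of Zfp36, 9.04 ± 0.668. On the same scale Fos rose from 16.3 ± 1.35 in Gent, between Ier2 and Egr1, to 65.6 ± 3.59, second only to Ier3 at 109 ± 12.7.

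**Figure D3:**
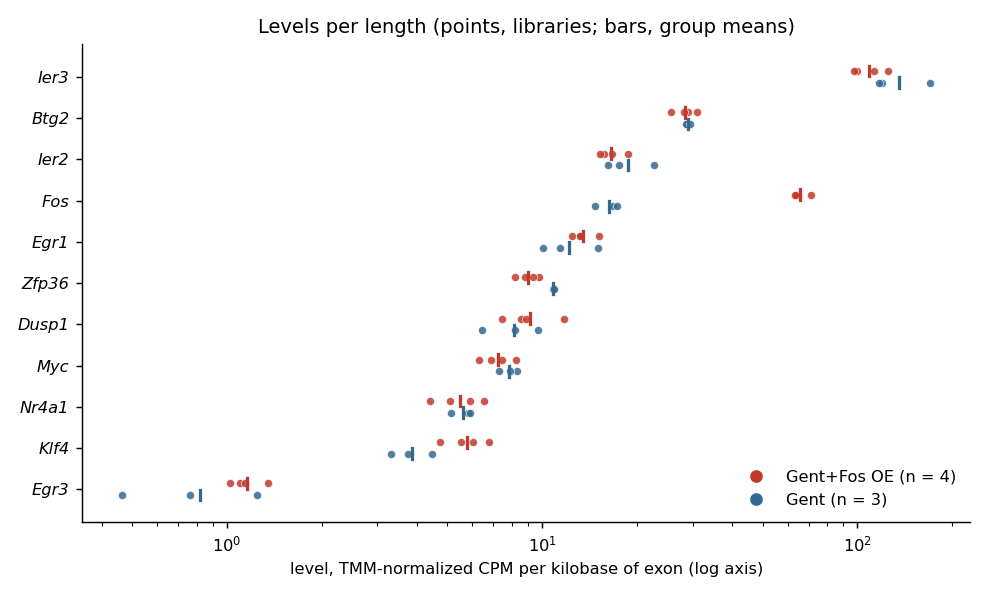
Levels per length, as TMM-normalized CPM per kilobase of exon on a log axis, for Fos and the 10 genes in the 3 Gent (blue) and 4 Gent+Fos OE (red) libraries, with bars at the group means. The order runs from Ier3 (136 in Gent) to Egr3 (0.82 in Gent), and only Fos changes its place by more than one neighbour.

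The genes also varied between libraries within the groups. Gent+Fos OE replicate 2 lay above its group mean for 8 of the 10 genes, with a median deviation of 0.19 on the log2 scale, and the medians of the other 6 libraries lay between -0.07 and 0.03. In Gent replicate 2, Egr1 and Egr3 were low (-0.25 and -0.71 from the group mean) while Ier2, Ier3 and Dusp1 were high (0.28, 0.35 and 0.28). Ier2, Ier3, Klf4, Nr4a1 and Myc were above their group means in replicate 2 of both groups, while Egr1 and Egr3 lay above in one and below in the other.

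With group means subtracted, Ier2 and Ier3 had the highest correlation over the 7 libraries (Pearson's r = 0.98, Spearman's rho = 0.96), then Egr1 and Egr3 (r = 0.96, rho = 0.89). Without the 2 libraries farthest from the median, r was 0.88 for Ier2 and Ier3 and 0.95 for Egr1 and Egr3. In exact permutations within the groups (144 arrangements), p of r was 0.00694 for each of these pairs, the smallest possible, and 0.156 after adjustment over the 45 pairs. The permutation p of rho was 0.00694 (adjusted 0.313) for Ier2 with Ier3 and 0.0417 (adjusted 0.729) for Egr1 with Egr3. Neither pair thus passed the correction, and 27 of the 45 pairs had a positive r, with a median of 0.19 and a lowest value of -0.68. Pairs measured in the same libraries share those libraries' depth and length trends.

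**Figure D4:**
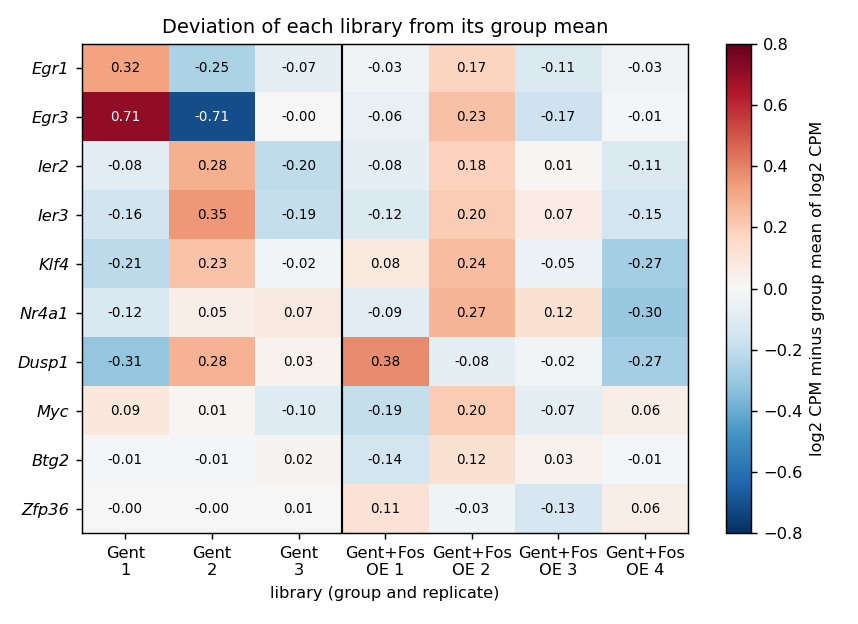
Deviation of each library from its group mean in log2 CPM (colour and printed value) for the 10 genes (rows) in the 7 libraries (columns). Egr1 and Egr3 are high in Gent replicate 1 (0.32 and 0.71) and low in Gent replicate 2, and 8 of the 10 genes are above 0 in Gent+Fos OE replicate 2.

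Outside the list, the genes most like the mean standardized level of the 10 over the 7 libraries were, among 14193 genes averaging 1 CPM or more, Slc4a11 (r = 0.96), Klhdc8a (0.95), Bid (0.95), Ttll12 (0.94) and Itprid1 (0.94). All 5 were highest in Gent+Fos OE replicate 2, and r without that library was 0.85 to 0.97. They were picked as the top of 14193 values of r over the same 7 libraries, so neither r is an independent check. How high the top values would reach by chance was not tested. None of the 5 was called changed, with edgeR adjusted p from 0.659 to 0.864.

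The close relatives of the 10 genes were likewise not called, with 0 of 23 tested (Egr4 was too low to test). Of these, 16 had a fold change above 1 and 7 below, with a median log2 fold change of 0.14. Dusp5, a phosphatase specific for ERK, had the smallest p, at a log2 fold change of 0.88 ± 0.24 (SE, edgeR adjusted p = 0.0859), with 29, 61.5, 38.6 and 32.7 CPM in Gent+Fos OE above 23.4, 20.3 and 22.4 CPM in Gent. Dusp2, a phosphatase of lymphoid and myeloid cells, went the other way at -1.04 ± 0.32 (SE, edgeR adjusted p = 0.113). Dusp10 (0.51, adjusted p = 0.139) and Dusp4 (0.72, adjusted p = 0.154) were also higher without overlap, and Dusp4 was at 0.41 without Gent replicate 2. In all, 3 of the 23 were higher and 2 lower (Dusp2, and Ier5l at -0.46) without overlap, beside 11.3% and 12.2% of all genes.

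Of 30 further genes known to be induced early by growth factors, stress or hormones, 0 were called by edgeR, with 12 above and 18 below 1 and a median log2 fold change of -0.14. That median was -0.04 with the length trend removed. At an unadjusted p under 0.05, 4 were higher and 8 lower, beside 11.1% and 13.4% of all genes. Sgk1, a kinase induced by serum and glucocorticoids, had 145, 139, 159 and 132 CPM in Gent+Fos OE and 90.0, 72.0 and 97.5 CPM in Gent (log2 fold change 0.73 ± 0.14 SE, edgeR adjusted p = 0.0297). Per1, a clock gene that glucocorticoids induce, was at 0.50 ± 0.12 (SE, edgeR adjusted p = 0.0617). Sgk1 and Per1 were called by DESeq2 at the same limits, where 3.17% of 18927 genes were called. Cebpd, an inflammatory transcription factor, had the smallest p among those lower, at -0.75 ± 0.21 (SE, edgeR adjusted p = 0.0985), and at -0.47 without Gent replicate 2.

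The factors that switch immediate early genes on (SRF, its TCF and MRTF partners, CREB and its coactivators, MAP kinases) gave 0 calls among 18 genes. Of these, 12 were above and 6 below 1, and the median log2 fold change went from 0.15 to 0.02 with the length trend removed. The CREB coactivator Crebbp had the smallest p (0.59 ± 0.16 SE, edgeR adjusted p = 0.0834) and was at 0.20 with that trend removed, while Mrtfb was at 0.47 (adjusted p = 0.189), at 0.28 without Gent replicate 2 and at 0.26 with the trend removed. Partners and feedback proteins of EGR and MYC gave 0 calls among 13 genes, 9 above and 4 below 1. Their median was 0.04, or -0.0015 with the length trend removed. Among them were Mxd3, a MAX partner that opposes MYC (-0.97, adjusted p = 0.132), and Fbxw7, which marks MYC for degradation (0.41, adjusted p = 0.143). Without Gent replicate 2, where Mxd3 was highest at 7.72 CPM, Mxd3 was at -0.46, and Fbxw7 was at 0.26 with the length trend removed.

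Known MYC targets of ribosome building and growth lay mostly below 1, in 13 of 15 genes, with 0 called. Without overlap 9 of the 15 were lower and 0 higher, beside 12.2% and 11.3% of all genes, and the median log2 fold change was -0.33. Nop56, the gene at that median, was at -0.20 without Gent replicate 2. Nme1, a nucleoside diphosphate kinase, was at -0.55 ± 0.17 (SE, edgeR adjusted p = 0.109), Srm, spermidine synthase, at -0.61 ± 0.19 (adjusted p = 0.111), and the lactate dehydrogenase gene Ldha at -0.48 ± 0.15 (adjusted p = 0.12). Without Gent replicate 2 these log2 fold changes were -0.33, -0.32 and -0.27. Myc itself, at -0.11, did not separate the groups.

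Known target mRNAs of the ZFP36 protein had a lower median than the other pathway lists. Of 10 tested (Csf2 was too low to test), 8 were below 1, 1 was called lower by edgeR and 5 by DESeq2, with a median log2 fold change of -0.89, or -0.67 with the length trend removed. Il1b, the interleukin-1 beta gene, had 1.89, 1.84, 1.77 and 1.82 CPM in Gent+Fos OE and 5.07, 7.6 and 6.59 CPM in Gent, and fell by 1.81 on the log2 scale (SE 0.22, edgeR adjusted p = 0.00316). The chemokine genes Cxcl2 (-1.15, adjusted p = 0.0127) and Ccl3 (-1.13, adjusted p = 0.0135) and the cytokine gene Tnf (-1.16, adjusted p = 0.0241) did not pass in edgeR and passed in DESeq2. These are also transcripts of macrophages, and macrophage markers moved with them. Of 12 markers 11 were below 1 and 0 were called by edgeR (6 lower by DESeq2), with a summed level of 1135 to 1868 CPM in Gent+Fos OE and 2042 to 2594 CPM in Gent and no marker at 0 in every library. In bulk RNA fewer cells of a type and less RNA per cell cannot be told apart, and the part of macrophages in the values of Il1b, Tnf, Cxcl2, Ccl3 and Zfp36 was not tested.

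**Figure D5:**
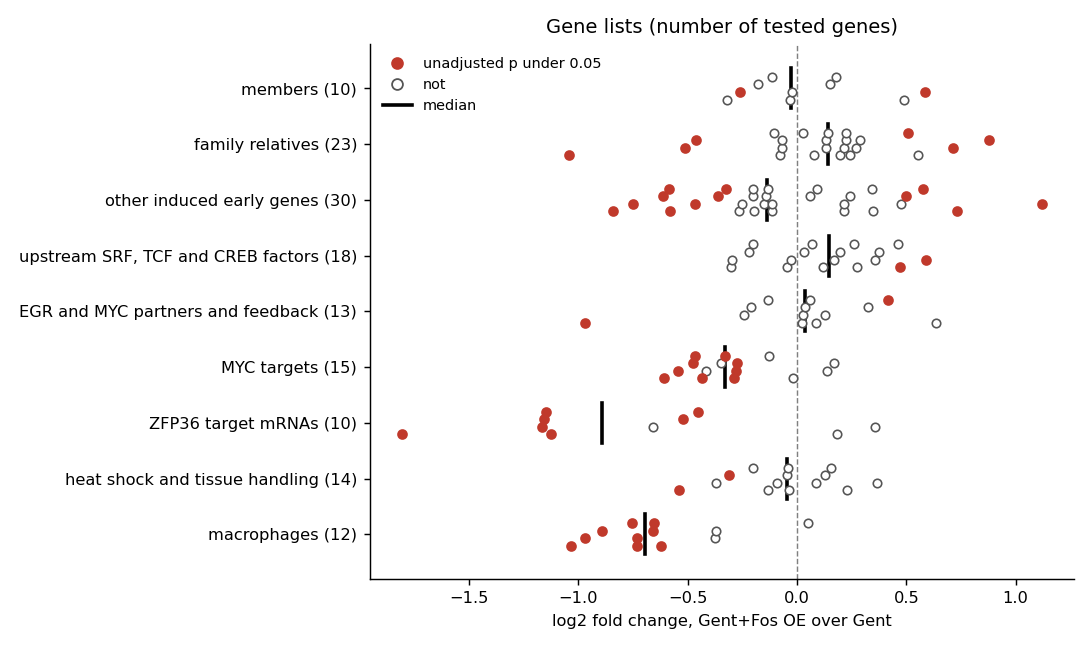
Log2 fold changes of Gent+Fos OE over Gent (x axis) for the 10 genes (members) and 8 related gene lists, 1 point a gene, filled red at an unadjusted edgeR p under 0.05, with a bar at each median. The medians lie near 0 for the 10 genes (-0.03) and at -0.89 for the ZFP36 target mRNAs and -0.69 for the macrophage markers.

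Heat shock and tissue handling genes, which dissection or warming can raise together with immediate early genes, gave 0 calls among 14, with 5 above and 9 below 1 and a median log2 fold change of -0.04. Their summed level was 6280 to 6640 CPM in Gent+Fos OE and 7142 to 7383 CPM in Gent, without overlap. Such a sum is weighted to abundant genes, and Hspa8 alone had means of 1788 and 2218 CPM. Taken singly, 1 gene of the 14 (Hspa8) was lower and 0 were higher without overlap, beside 12.2% and 11.3% of all genes. Hspe1 (-0.54, edgeR adjusted p = 0.155) and Hspa8 (-0.31, adjusted p = 0.166) had the smallest p, and Hspe1 was at -0.25 without Gent replicate 2 (Hspa8 at -0.21). The part of handling in the values of the 10 genes was not tested. Within the AP-1 family Fos was the 1 gene of 8 called by edgeR, with 3 above and 5 below 1. Fos included, 3 were higher and 2 lower at an unadjusted edgeR p under 0.05, beside 11.1% and 13.4% of all genes. Without overlap 2 were higher and 2 lower, beside 11.3% and 12.2%. Among the lower genes, Atf3 was at -0.49 (edgeR adjusted p = 0.0656), or -0.29 with the length trend removed, and DESeq2 called it lower (adjusted p = 0.00557).

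Markers of the utricle's cell types were present in both groups, and some of their summed levels did not overlap. Hair cell markers summed to 831 to 1045 CPM in Gent+Fos OE and 685 to 846 CPM in Gent (7 above and 4 below 1, 0 of 11 called by edgeR and 2 higher by DESeq2, Pcdh15 at 1.08 with an edgeR adjusted p of 0.0288, or at 0.54 with the length trend removed), and supporting cell markers to 2769 to 3445 and 1884 to 2414 CPM (7 above and 2 below 1, 1 of 9 called by edgeR, Otog at 1.25, and 2 higher by DESeq2). Epidermis-like epithelium genes, where Klf4 is known to act, summed to 67.8 to 86.5 and 12.7 to 38.3 CPM, with 2 above and 2 below 1 and 1 of 4 called by edgeR (Crct1 at 4.16) and 2 higher by DESeq2, and their part in the value of Klf4 was not tested. Melanocyte markers summed to 48.9 to 53.3 and 91.6 to 131 CPM (2 of 8 called lower by edgeR, Dct at -1.40 and Tyrp1 at -1.87, and 6 by DESeq2). The sums of markers of mesenchyme (10 tested), endothelium (8), Schwann cells and glia (8) and neurons (6) overlapped between the groups, with 0 called by edgeR and, by DESeq2, 1 endothelial gene higher and 1 Schwann cell or glial gene lower.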

How the data were processed

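The 7 bulk RNA-seq libraries (4 Gent+Fos OE, 3 Gent) were grouped by their labels. The authors deposited raw read counts per gene, made by featureCounts on an mm10 annotation per the file headers, with no strand setting, no multi-mapping reads, and each read of a pair as its own count. The submitters' processing notes name Trim Galore 0.6.10, HISAT2 2.2.1, featureCounts 2.0.6 and DESeq2 1.34.0. The study's methods name mm39 and 3 replicates per condition, whereas the headers name mm10 and the labels list 4 and 3 libraries.

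Counts were compared in R 4.3.3 with edgeR 4.0.16 (filterByExpr, TMM, quasi-likelihood F-test, Benjamini-Hochberg over 17155 genes), and calls needed an adjusted p below 0.01 with a log2 fold change beyond 0.25 either way. DESeq2 1.42.0 and limma-voom (limma 3.58.1) were alternatives, and single genes were also compared by exact permutation. Length and GC trends were removed by loess (span 0.3) as alternatives. Python 3.11.15, pandas 2.3.3, scipy 1.17.1 and matplotlib 3.10.9 were used for the rest. Libraries of a group differed beyond sampling of reads, so the spread between pools sets the precision.

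The genes, lists and tests were chosen with earlier results of these data known. Besides the 10 genes and Fos, the genes named are the 5 most like them and, from each list, some of those with the smallest p and any called. The result of 1 gene named by this rule is not reported here. The code was tested on simulated data.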

Additional observations from a re-analysis of the deposited data

Results flagged for a closer look

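One value stood apart from its group. Fos in Gent+Fos OE replicate 3 was 167 CPM, above the other 3 libraries of the group (149 to 151 CPM), and the gap to its nearest neighbour was 0.873 of the range of the 4 libraries. Of 11 genes examined (the 10 immediate early genes and Fos) this was the only one past that limit, which chance alone passes in about 1 in 20 groups. In that library Egr1, Egr3 and Zfp36 were the lowest of the 4 (55.7, 4.5 and 28.5 CPM). The remaining immediate early genes were not, among them Ier3, Nr4a1 and Btg2 at 128, 20.7 and 79.3 CPM. Whether any of the 10 genes followed Fos across libraries was not tested.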

How the results depend on the processing

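Of the 170 values that the 10 genes took under 17 alternatives, 0 were called and 18 turned direction, all within 0.15 of 0 on the log2 scale. With the length trend removed these were Ier2 (0.087), Nr4a1 (0.044), Myc (0.029) and Btg2 (0.12). With length and GC trends removed they were Ier2 (0.11), Ier3 (0.0043), Nr4a1 (0.091), Myc (0.061) and Btg2 (0.13). Klf4 stayed at 0.49 to 0.79 and Zfp36 at -0.31 to -0.15 under all 17, with adjusted p from 0.0176 to 0.248 and 0.17 to 0.421. Leaving out single libraries moved Btg2 over -0.070 to 0.016, Nr4a1 over -0.13 to 0.056, Egr1 over 0.025 to 0.33, Egr3 over 0.20 to 0.91, Dusp1 over 0.029 to 0.32, Myc over -0.19 to -0.059, Ier2 over -0.27 to -0.026 and Ier3 over -0.42 to -0.13.

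The median of the 10 genes was 0.10 with the length trend removed, 0.12 with length and GC trends removed and 0.14 under the replicate block with the length trend removed, against -0.03. Over all genes, 23 were called higher and 48 lower by edgeR, 273 and 327 by DESeq2, 63 and 141 with no filter on low counts, 36 and 75 with the length trend removed, and 42 and 82 with length and GC trends removed. Leaving out single libraries gave 2 to 45 higher and 3 to 93 lower, lowest without Gent+Fos OE replicate 3 and highest without Gent replicate 2. The cause of these shifts was not tested.

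Libraries with the same replicate number did not deviate together (correlations 0.0643, -0.038 and 0.0317), so they share only a number. Replicate 4 exists only in Gent+Fos OE, so the replicate block takes up that library and leaves fewer for the comparison. With the block 0 genes were called higher and 0 lower (Nr4a1 turned to 0.056). With the block and the length trend removed, 21 genes were called higher and 35 lower. There Ier2 (0.15), Ier3 (0.029), Nr4a1 (0.13), Myc (0.017) and Btg2 (0.13) turned direction. With 3 and 4 pools the 95% intervals of the log2 fold change were widest for Egr3 (-0.18 to 1.15) and narrowest for Btg2 (-0.28 to 0.23).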
